A study of Sus scrofa with 2 samples.

Results

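Cholecystokinin (CCK), 6 other neuropeptide precursor genes (NPY, VIP, TAC1, SST, PENK and GAL) and 3 peptide receptor genes (CCKAR, CCKBR and NMUR2) were examined in the stria vascularis (SV) of the pig cochlea. They are 10 of the 27622 features with a deposited expression value, and each symbol was found. The genes were picked by symbol with earlier results of the same libraries known, after CCK had stood out as higher in r/r SV. The values that chose them are therefore the RPKM values compared here, and all of their differences are given as a description, with no test. The question was whether the higher CCK value in r/r SV was shared by other peptide genes or by the CCK receptors.

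The study used Rongchang pigs, in which a spontaneous mutation (allele r) lies upstream of the M-exon of MITF, the exon that starts the melanocyte form of this transcription factor. The paper calls the transmission of hearing loss semi-recessive, as a small share of its heterozygous pigs also had impaired hearing. RNA-seq was done on 1 library of Mitf R/r SV and 1 library of Mitf r/r SV, so the control also carried 1 r allele and no library without it was compared. The labels name the tissue as SV, whereas the study's methods describe dissection of the whole lateral wall with the SV in it, so the libraries, called SV here, can also hold tissue of the spiral ligament. The sample labels give the age as postnatal day 1, whereas the study's text places the sequencing at an embryonic stage, and whether each library came from 1 animal or from pooled animals is not given in the sources used here. With 1 library per genotype there is no replicate check: every difference below compares these libraries, not the genotypes, and animal, dissection and library cannot be told apart from genotype.

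The values are RPKM, in which the mapped reads of a gene are scaled to the length of its exons and to the depth of its library. Low values stepped in whole reads, which gave totals of 15829244 reads in R/r SV and 14258672 reads in r/r SV. A single read on 1 kb of exon was worth 0.0632 RPKM in R/r SV and 0.0701 RPKM in r/r SV. Values given in pairs are those of R/r SV first and r/r SV second. Reads are given as the smallest pair of whole numbers that fits both RPKM values of a gene. The true reads may be a common multiple of this pair, and the intervals would then be narrower. Summed over features, these smallest reads came to 89.3% of the total in each library, which is a lower limit for the same reason. Intervals are exact 95% intervals (Poisson for a level, Clopper-Pearson for a ratio) and cover counting error only.

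The labelled tissue was checked against markers of the SV and the lateral wall. KCNE1, a potassium channel subunit of marginal cells, was at 278 RPKM in R/r SV and 248 RPKM in r/r SV. CLDN11, the tight junction protein of basal cells, was at 840 and 706 RPKM, and COCH, a secreted protein of fibrocytes, was at 6826 and 4914 RPKM. These markers were abundant in both libraries. SLC26A4, also on the list of basal cell and fibrocyte markers, was not, at 0.209 and 0.116 RPKM from 8 and 4 reads. KCNQ1, OTOS, GJB2 and GJB6 were not matched to a feature and could not be checked.

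Neuropeptides are cut from larger precursors by prohormone convertases inside dense-core granules, often amidated at their end, and released to act on G protein-coupled receptors. CCK is made by endocrine cells of the gut and by many neurons, and acts through CCKAR and CCKBR, the second of which also binds gastrin. In the cochlea, peptides such as enkephalins and calcitonin gene-related peptide are known from efferent nerve fibres, whereas the SV is an epithelium without hair cells or neuron bodies that secretes the potassium-rich endolymph.

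CCK (ENSSSCG00000011277) was at 1.03 RPKM in R/r SV (95% interval 0.513 to 1.84, 11 reads) and at 23.8 RPKM in r/r SV (20.8 to 27.0, 229 reads). The intervals of the level did not overlap. The r/r value was 23.1-fold higher, a log2 ratio of 4.53 (3.66 to 5.55), and the end of the interval nearest to no change was 12.7-fold. In R/r SV, 20.7% of the 20156 features above 0 had a lower RPKM value than CCK, and in r/r SV 78.6% of 20053 did. CCK thus went with the low expressed genes in one library and with the upper part of the range in the other. In bulk tissue, more cells of a type and more RNA per cell cannot be told apart.

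Expression was compared for genes above 0 in both libraries with at least 1 RPKM in at least one, and 2-fold was the threshold. Of 16331 genes compared, 291 (1.78%) were at least 2-fold higher and 360 (2.20%) at least 2-fold lower in r/r SV, with a median log2 ratio of -0.02. The paper's own list of genes with a 2-fold difference gives p values, is far shorter and does not hold CCK. Of the 10 members, 3 were listed at 0 in both libraries, 2 were above 0 but under 1 RPKM in both, and 5 were compared. At least 2-fold higher were 3 (CCK, TAC1 and NMUR2), and 0 were at least 2-fold lower. Because the members were chosen on this contrast, nothing is read from these counts against the shares of all genes. TAC1 was compared only through its r/r value and CCKBR only through its R/r value, so a member that passed the minimum in this way had to be lower in the other library. With the stricter demand that the whole interval lie beyond 2-fold, an alternative added after seeing the data, 1 member (CCK) was called, and over all genes 48 (0.294%) were called higher and 58 (0.355%) lower. Among the genes with at least 20 recovered reads, a further alternative added in the same way, the shares past 2-fold were 1.18% higher and 1.57% lower, and TAC1 and CCKBR were not among them.

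**Figure D1:**
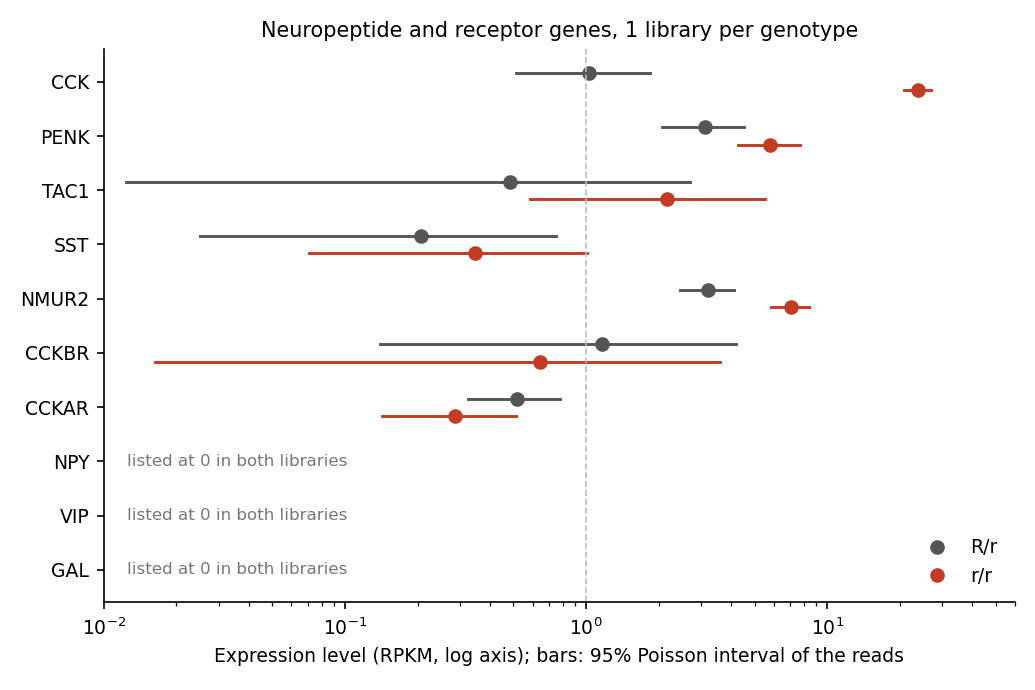
RPKM of each member (log axis) in the R/r library (grey) and the r/r library (red), with 95% Poisson intervals as bars and 1 RPKM as a dashed line. CCK lies at 1.03 and 23.8 RPKM with intervals far apart, the intervals of NMUR2 also lie apart, those of PENK, TAC1, SST, CCKBR and CCKAR overlap between the libraries, and NPY, VIP and GAL were listed at 0.

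Among the other precursors, PENK (ENSSSCG00000006243), which encodes the enkephalins, had the most reads. Its value was 3.12 RPKM in R/r SV (2.07 to 4.51, 28 reads) and 5.81 RPKM in r/r SV (4.27 to 7.73, 47 reads). The log2 ratio was 0.90 (0.19 to 1.63), a 1.86-fold higher value that stayed under the 2-fold threshold. The intervals of the levels overlapped, while the interval of the ratio lay above 0.

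TAC1 (ENSSSCG00000023592), the precursor of substance P and neurokinin A, was at 0.486 RPKM in R/r SV (0.0123 to 2.71) and 2.16 RPKM in r/r SV (0.588 to 5.53). Its log2 ratio of 2.15 was the second of the members, but it rested on 1 and 4 reads and its interval ran from -1.19 to 7.77. A difference in either direction fits the reads as recovered. The exon length found with them was 130 b, which is very short, so the true reads are probably a multiple of these. The interval would then be narrower, and whether it would still span 0 is not known. SST (ENSSSCG00000011808), the somatostatin precursor, was at 0.207 RPKM (2 reads) and 0.345 RPKM (3 reads), under the minimum, with a log2 ratio of 0.74 (-2.39 to 4.32). No difference in SST was detectable at this depth.

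NPY (neuropeptide Y, ENSSSCG00000016718), VIP (vasoactive intestinal peptide, ENSSSCG00000004078) and GAL (galanin, ENSSSCG00000012883) were listed at 0 in both libraries. Their exon lengths are not known from values of 0, so no limit of their own can be given. On an exon model of 1 kb, 3 reads would be 0.19 RPKM in R/r SV and 0.21 RPKM in r/r SV. Of the 7 precursors, 4 were therefore above 0, and all 4 had a log2 ratio above 0. With the reads as recovered, the intervals lay above 0 for CCK and PENK and spanned 0 for TAC1 and SST. Over all 16331 genes compared, 7620 had a log2 ratio above 0. Because the members were chosen on this contrast, nothing is read from their count.

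Neither receptor of CCK was higher in r/r SV. CCKAR (ENSSSCG00000023501), the receptor that prefers sulphated CCK, was at 0.517 RPKM in R/r SV (0.324 to 0.783, 22 reads) and 0.287 RPKM in r/r SV (0.143 to 0.514, 11 reads). Its log2 ratio was -0.85 (-2.04 to 0.26), lower in r/r SV but with an interval that spanned 0. CCKBR (ENSSSCG00000014631) was at 1.16 RPKM (0.140 to 4.19) and 0.643 RPKM (0.0163 to 3.58), from 2 and 1 reads on an exon length of 109 b. The log2 ratio of CCKBR was also -0.85, and its interval of -6.73 to 3.41 allowed a large difference in either direction. The exon length found for CCKBR is also very short, so its true reads are probably a multiple of those found. GAST, the gastrin precursor and the other ligand of CCKBR, was listed at 0 in both libraries.

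NMUR2 (ENSSSCG00000017076), a receptor of neuromedin U and neuromedin S, was the receptor member that was higher in r/r SV. It was at 3.20 RPKM in R/r SV (2.45 to 4.10, 62 reads) and 7.05 RPKM in r/r SV (5.86 to 8.41, 123 reads), and these intervals did not overlap. The log2 ratio was 1.14 (0.69 to 1.60), a 2.20-fold higher value whose interval reached below 2-fold. With a pseudocount of 1 RPKM, NMUR2 was no longer past 2-fold. Its relative NMUR1 had 4 and 2 reads, with a log2 ratio of -0.85 (-4.32 to 1.95). The ligand NMU was at 0.305 RPKM in R/r SV from 1 read and was listed at 0 in r/r SV, and NMS was not matched to a feature.

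The order of the members' levels on the RPKM scale differed between the libraries. In R/r SV it was NMUR2, PENK, CCKBR, CCK, CCKAR, TAC1 and SST, and every member's interval overlapped that of the next. In r/r SV it was CCK, NMUR2, PENK, TAC1, CCKBR, SST and CCKAR. There the interval of CCK lay above that of NMUR2, and each of the others overlapped the next. In r/r SV, the place of CCK was thus set apart from its neighbour by more than counting error. As CCK was chosen on these same values, its place is a description and no test.

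**Figure D2:**
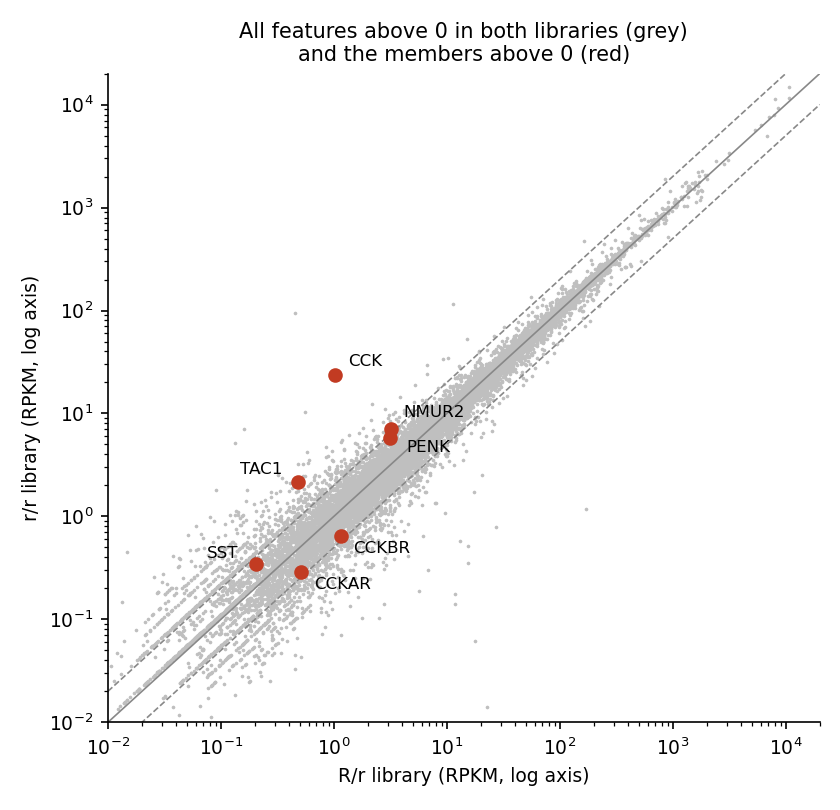
RPKM in the r/r library against RPKM in the R/r library for every feature above 0 in both (grey) and for the 7 members above 0 (red), on log axes. The solid line marks equal values and the dashed lines 2-fold; CCK (1.03 and 23.8 RPKM) stands well above the upper dashed line, while PENK, SST, CCKAR and CCKBR lie between the dashed lines.

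CCK had one of the highest ratios in the table. Among the genes compared, 3 features had a higher log2 ratio, and they are named after their values were seen. C14H10orf116 was at 0.453 RPKM in R/r SV and 93.6 RPKM in r/r SV, a log2 ratio of 7.69 (6.14 to 9.97). The feature ENSSSCG00000023256, without a symbol, was at 0.162 RPKM in R/r SV, and had 1 and 39 reads, with a log2 ratio of 5.44 (2.87 to 10.78). The last was a transcribed region outside the Ensembl annotation, at 0.134 and 5.20 RPKM, from 1 and 35 reads, with a log2 ratio of 5.28 (2.71 to 10.62). The intervals of both low features overlapped that of CCK, so that their order against CCK is not settled by these reads, and the interval of C14H10orf116 lay above that of CCK.

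The named genes whose pair of values lay nearest to that of CCK, by distance in log2 RPKM over the 2 libraries, were INMT, CDH16, MX2, NXPH2 and GRIA1. INMT, a methyltransferase, was at 2.20 and 12.3 RPKM, a log2 ratio of 2.48 (1.95 to 3.05), at a distance of 1.45. The log2 ratios of the others were 2.02 for CDH16, 1.94 for MX2, 1.91 for NXPH2 and 1.64 for GRIA1, and their distances ran from 1.80 to 2.10. The nearest gene, INMT, had a smaller ratio than CCK, and its interval did not reach that of CCK. As CCK was chosen for its higher value in r/r SV, nothing further is read from this.

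Genes that flank CCK were compared by their order in the RefSeq annotation of Sscrofa11.1, a later assembly than the one of the files. Of the 10 protein-coding genes next to CCK on chromosome 13, 5 on each side, 7 were matched and 6 had a ratio, from -0.11 to 0.84 on the log2 scale. TRAK1, a motor adaptor of mitochondria directly beside CCK, was at 19.9 and 18.4 RPKM, with a log2 ratio of -0.11 (-0.21 to -0.01). CTNNB1, which encodes beta-catenin, was at 373 and 409 RPKM, and its log2 ratio was 0.13 (0.10 to 0.16). ULK4 (0.51, interval -0.36 to 1.41), SEC22C (0.03) and SS18L2 (0.22) were under 2-fold as well, and LYZL4 was listed at 0. None of the 6 flanking genes with a ratio reached 2-fold. Of all genes compared, 1.78% were at least 2-fold higher and 2.20% at least 2-fold lower, so this count is near those shares. CCK overlapped no other protein-coding gene of that annotation.

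**Figure D3:**
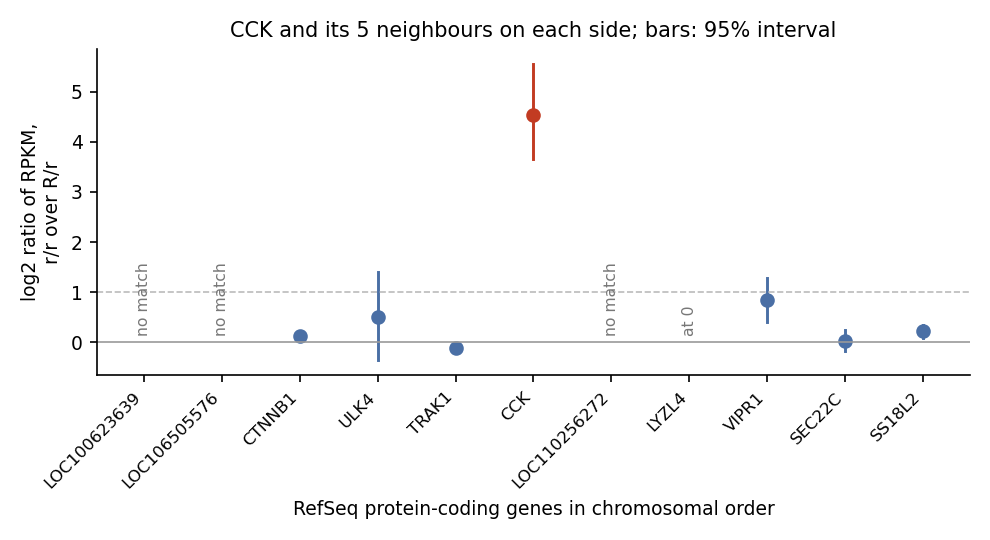
Log2 ratio of RPKM, r/r over R/r, for CCK (red) and the 5 protein-coding genes on each side (blue) in chromosomal order, with 95% intervals as bars and 2-fold higher as a dashed line. CCK is at 4.53 and its 6 flanking genes with a ratio lie between -0.11 and 0.84; the others were not matched or were listed at 0.

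The highest ratio among these flanking genes was that of VIPR1, which is also the receptor of VIP and of the related peptide PACAP. It was at 1.64 RPKM in R/r SV (72 reads) and 2.93 RPKM in r/r SV (116 reads). The log2 ratio was 0.84 (0.40 to 1.28), above 0 but with an interval spanning 2-fold. The second receptor, VIPR2, was at 2.09 and 2.84 RPKM, and its log2 ratio of 0.44 (-0.13 to 1.02) was within counting error of 0. ADCYAP1R1, the receptor selective for PACAP, was under the minimum at 0.0420 and 0.327 RPKM, from 1 and 7 reads, with a log2 ratio of 2.96 (0.00 to 8.45). ADCYAP1, the PACAP precursor, was listed at 0 in both libraries like VIP. Transcripts of VIP receptors were thus counted in libraries in which the precursors of their ligands were listed at 0.

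Of the receptors of neuropeptide Y, those 2 that passed the minimum were near equal in the libraries, while NPY itself was listed at 0. NPY1R was at 1.76 and 1.80 RPKM, with a log2 ratio of 0.03 (-0.42 to 0.48), and NPY4R was at 1.69 and 1.76 RPKM, with a log2 ratio of 0.06 (-0.56 to 0.68). NPY2R had 7 and 10 reads (log2 ratio 0.67, interval -0.88 to 2.30), NPY5R 1 and 0 reads and the ligand PPY 0 and 1 reads. PYY, which encodes peptide YY and was the ligand of this family with the most reads, was at 2.63 RPKM in R/r SV (31 reads) and 1.23 RPKM in r/r SV (13 reads). Its log2 ratio was -1.10 (-2.16 to -0.13), opposite in direction to that of CCK, although both are known as peptides of gut endocrine cells.

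For galanin, GALR1 was at 1.95 and 1.53 RPKM, with a log2 ratio of -0.35 (-1.17 to 0.44). GALR3, which overlaps GCAT, had 9 and 8 reads, GALR2 0 and 1 reads and the ligand GALP 0 and 1 reads. No difference in a galanin receptor was detectable at this depth. Of the somatostatin receptors, SSTR2 was at 0.968 RPKM in R/r SV (17 reads) and 0.126 RPKM in r/r SV (2 reads), and the log2 ratio was -2.94 (-6.09 to -0.86). SSTR2 stayed under the minimum of 1 RPKM, and it overlaps SLC39A11, so that without knowledge of the strand its reads are uncertain. SSTR1 (7 and 5 reads), SSTR3 (10 and 15 reads) and SSTR5 (1 and 0 reads) had intervals that spanned 0 or no ratio. SSTR4 was not matched, and CORT, the other ligand, was listed at 0.

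In the tachykinin system, TAC4 had 7 reads in R/r SV and 1 read in r/r SV (log2 ratio -2.66, interval -8.15 to 0.30), and TAC3 was listed at 0 in both. TACR2 had 1 and 0 reads and TACR3 2 and 1 reads, and TACR1, the receptor of substance P, was not matched to a feature. In the opioid system, POMC was at 1.79 and 1.34 RPKM, with a log2 ratio of -0.41 (-1.28 to 0.43), PDYN was listed at 0 and PNOC had 1 and 0 reads. The enkephalin receptors OPRD1 and OPRM1 were listed at 0 in both libraries, OPRK1 was not matched, and OPRL1, the nociceptin receptor, had 5 and 3 reads. PENK was thus above 0 in libraries in which both of these receptors were listed at 0.

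Over the 8 peptide systems of the members, 23 receptor genes besides the members were looked up, and 20 were matched. Only 5 of these passed the minimum (NPY1R, NPY4R, VIPR1, VIPR2 and GALR1). Of the 5, 0 were at least 2-fold higher and 0 at least 2-fold lower, and 1 (VIPR1) had an interval above 0. Past 2-fold, the shares of all genes compared were 1.78% higher and 2.20% lower, and the receptor counts are near these.

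**Figure D4:**
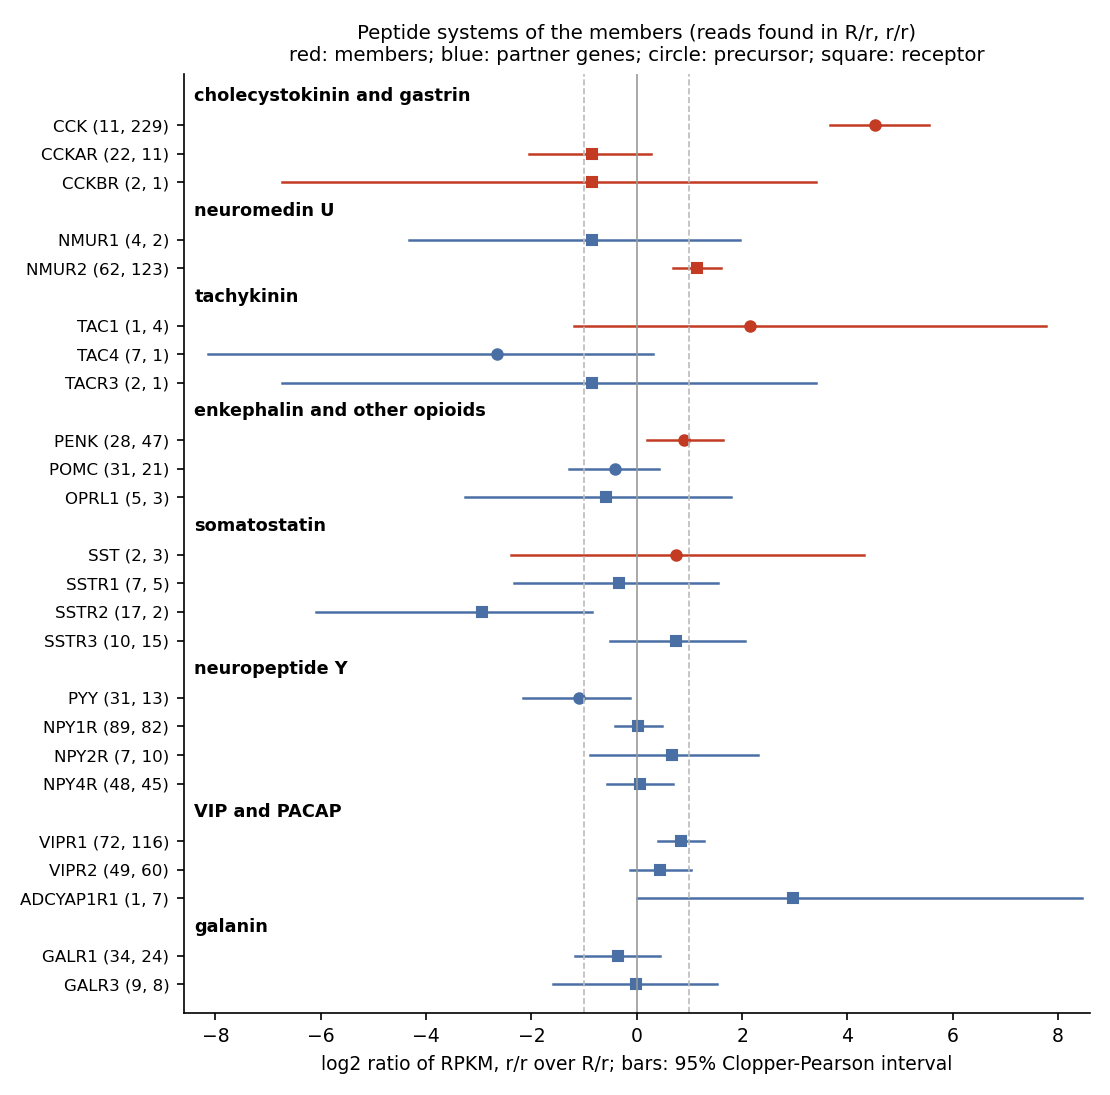
Log2 ratio of RPKM, r/r over R/r, for members (red) and their partner genes (blue) that were above 0 in both libraries, grouped by peptide system, with the reads found in the R/r and r/r library after each symbol and 95% Clopper-Pearson intervals as bars. Dashed lines mark 2-fold; the interval of CCK (3.66 to 5.55) lies wholly above 2-fold, and most intervals of genes with few reads span 0.

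A wider list of peptide precursors was compared next. Of 52 other ligands listed, 43 were in the table, 17 were listed at 0 in both libraries and 12 were compared. Their median log2 ratio was -0.29, beside -0.02 over all genes compared, and 1 (8.33%) was at least 2-fold higher and 3 (25.0%) at least 2-fold lower, beside 1.78% and 2.20% of all genes compared. The higher one, QRFP, an RFamide peptide, was at 0.156 and 1.04 RPKM from 1 and 6 reads, with a log2 ratio of 2.74 (-0.31 to 8.26), and it passed the minimum only through its r/r value. None of the 12 ligands compared had an interval wholly above 0 with the reads as recovered. For NMB, at 3.06 and 5.66 RPKM with a log2 ratio of 0.89 (-1.47 to 3.57), 3 and 5 reads were found on 62 b. This exon length is very short, so the true reads of NMB are probably a multiple and its interval would then be narrower.

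The 3 lower ligands were PYY, NPFF and EDN3. NPFF, a neuropeptide that modulates opioid action, was at 9.98 RPKM in R/r SV (55 reads) and 3.83 RPKM in r/r SV (19 reads), and the log2 ratio was -1.38 (-2.22 to -0.61). EDN3, a ligand of the endothelin receptor EDNRB with a known role in melanocyte development, was at 2.29 and 1.13 RPKM, with a log2 ratio of -1.02 (-1.58 to -0.47). The intervals of all 3 lay below 0 and reached above -1. By the higher of their 2 RPKM values, the top ligands were IAPP (162 and 144), ADM (11.4 and 7.20), NPFF, APLN (4.59 and 6.59) and EDN1 (5.95 and 4.87). IAPP, the islet amyloid peptide, overlaps SLCO1A2, and its reads are uncertain for that reason. CCK, at 23.8 RPKM in r/r SV, was above each of these ligands except IAPP on the RPKM scale.

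Among 58 other peptide receptors and their accessory proteins, 52 were in the table and 16 were compared. The median log2 ratio was 0.00, beside -0.02 over all genes compared. Of the 16, 0 were at least 2-fold higher and 1 (6.25%) at least 2-fold lower, beside 1.78% and 2.20% of all genes compared. The lower one was GLP1R, the receptor of glucagon-like peptide, at 8.34 RPKM in R/r SV and 4.10 RPKM in r/r SV. Its log2 ratio was -1.02 (-1.42 to -0.64). By the higher of their 2 RPKM values, the top receptor genes were RAMP2 (111 and 78.3) and RAMP1 (70.2 and 77.7), accessory proteins of the calcitonin receptor family, followed by NPR2 (26.1 and 23.7), NPR3 (12.3 and 22.6) and CALCRL (15.8 and 15.8). NPR3, the clearance receptor of natriuretic peptides, had the highest log2 ratio of the 16 compared at 0.87 (0.42 to 1.34), and NPR2 overlaps SPAG8. This highest ratio among the receptors compared was far under that of CCK, which had been chosen for its higher value in r/r SV.

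Genes that process, amidate, store or degrade peptides differed by less than 2-fold in either direction where they were compared. All 27 listed were in the table, 23 were compared, 0 were at least 2-fold higher or lower, and the median log2 ratio was -0.01. The values over all genes compared were near these, at 1.78% higher, 2.20% lower and a median of -0.02. PAM, the enzyme that amidates peptides such as CCK, was at 650 RPKM in R/r SV and 713 RPKM in r/r SV, a log2 ratio of 0.13 (0.11 to 0.15). CPE, which trims precursors after their cleavage, was at 194 and 179 RPKM, and SCG5, the chaperone of the convertase PCSK2, at 79.2 and 94.2 RPKM. MME (neprilysin), a peptide-degrading enzyme, was at 381 and 267 RPKM, with a log2 ratio of -0.52 (-0.55 to -0.48), and the convertase PCSK6 was at 219 and 153 RPKM.

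The convertases of regulated secretion were lower in r/r SV by less than 2-fold. PCSK1 was at 5.09 and 3.16 RPKM, with a log2 ratio of -0.69 (-0.93 to -0.45), and PCSK2 was at 36.5 and 27.6 RPKM, with a log2 ratio of -0.40 (-0.53 to -0.28). The tyrosine sulphotransferases, which sulphate CCK, were near equal, with log2 ratios of 0.05 (-0.15 to 0.25) for TPST1 and 0.04 (-0.22 to 0.29) for TPST2. Among granule proteins, CHGA was at 2.31 and 1.51 RPKM, CHGB at 1.81 and 1.24 RPKM and SCG3 at 1.10 and 1.76 RPKM, while VGF was listed at 0. Of these, SCG3 alone had an interval above 0 (log2 ratio 0.68, interval 0.24 to 1.13). None of the 23 processing and granule genes compared was thus 2-fold apart. Over all genes compared, 1.78% were at least 2-fold higher and 2.20% at least 2-fold lower. The count of 0 is near these shares, and nothing is read from it about CCK.

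**Figure D5:**
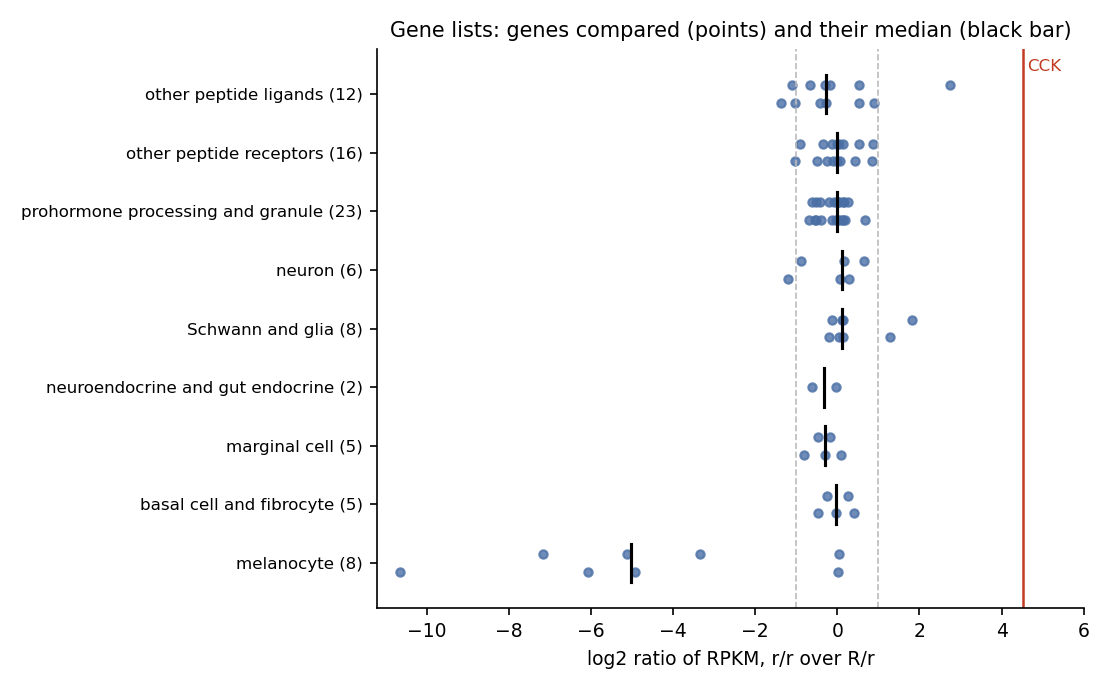
Log2 ratio of RPKM, r/r over R/r, for each gene compared (points) in the peptide lists and the cell type lists, with the median of the list as a black bar, the number of genes compared in brackets, dashed lines at 2-fold and CCK as a red line. The medians of the peptide lists lie between -0.29 and 0.00, that of the melanocyte list is -5.01, and no point reaches CCK at 4.53.

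Markers of cell types that can make CCK or other peptides were read beside it. Of 22 neuron markers, 20 were in the table and 6 were compared. Of the 6, 0 were at least 2-fold higher and 1 (16.7%) at least 2-fold lower, beside 1.78% and 2.20% of all genes compared. The summed level of the 20 was 113 RPKM in R/r SV and 132 RPKM in r/r SV. The most abundant in R/r SV was GATA3 (47.8 and 49.9 RPKM), a transcription factor that other cells of the cochlea make as well, and in r/r SV it was UCHL1. NEFH and INA were listed at 0 in both. UCHL1 was at 34.4 and 53.7 RPKM, with a log2 ratio of 0.64 (0.30 to 0.99), and MAP2 (12.4 and 13.9 RPKM) and SYP (5.46 and 6.65 RPKM) were nearer to equal.

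The other neuron genes went in both directions or had few reads. GAP43, a protein of growing axons, was at 7.29 and 3.19 RPKM, with a log2 ratio of -1.19 (-1.88 to -0.54), and STMN2 at 2.60 and 1.41 RPKM. SNAP25 had 3 and 2 reads, TUBB3 3 and 3 reads, and POU4F1, a transcription factor of sensory neurons, 3 and 1 reads. SYT1, a synaptic vesicle protein, was at 0.421 RPKM (27 reads) and 0.693 RPKM (40 reads), with a log2 ratio of 0.72 (-0.02 to 1.48), and PRPH, a neuronal filament protein, was at 0.931 and 0.989 RPKM. NEFL, the light neurofilament, was higher in r/r SV. Named after its values were seen, it was at 0.0512 RPKM (3 reads) and 0.663 RPKM (35 reads), with a log2 ratio of 3.70 (2.03 to 6.04), and stayed under the minimum. The part of neurons or nerve fibres in the CCK value was not tested.

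Of 10 neuroendocrine and gut endocrine markers reported, 8 were in the table and 2 were compared. Their summed level was 7.41 RPKM in R/r SV and 6.55 RPKM in r/r SV, with ISL1 (4.91 RPKM in r/r SV) the most abundant. The transcription factors INSM1, NEUROD1 and NKX2-2, which define these cells, were listed at 0 in both libraries, PAX6 had 0 and 1 reads, TPH1 1 and 2 reads and TPH2 1 and 0 reads. CHGA, also on this list, was at 1.51 RPKM in r/r SV. The list thus held markers at 0 and markers above the minimum in the library in which CCK was high, and the part of endocrine cells in the CCK value was not tested.

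Of 10 Schwann cell and glia markers reported, 8 were in the table and compared. Their summed level was 6362 RPKM in R/r SV and 6634 RPKM in r/r SV. Most of this sum was S100B (6091 and 6272 RPKM), which the paper also lists among its melanocyte markers. GFAP was at 56.2 and 136 RPKM, with a log2 ratio of 1.28 (1.21 to 1.34), and MAG, a myelin protein, at 0.300 and 1.06 RPKM from 6 and 19 reads, with a log2 ratio of 1.81 (0.43 to 3.43). MAG passed the minimum only through its r/r value, so it could be called only as higher, and its interval reached below 2-fold. NCMAP (102 and 112 RPKM), CNP (54.6 and 50.4 RPKM) and FABP7 (33.5 and 36.9 RPKM) were near equal. GFAP was thus more than 2-fold higher in the library in which CCK was high, no direction is given for the list as a whole, and its part in the CCK value was not tested.

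The melanocyte list differed between the libraries by far more than any peptide list. Of 11 markers 10 were in the table, 8 were compared and 6 were at least 2-fold lower in r/r SV, with a median log2 ratio of -5.01. Their summed level was 324 RPKM in R/r SV and 51.1 RPKM in r/r SV. The most abundant in R/r SV, DCT, an enzyme of melanin synthesis, was at 171 and 1.19 RPKM, and the most abundant in r/r SV was KIT. The others at least 2-fold lower were TRPM1 (22.7 and 0.0142 RPKM), TYR (11.8 and 0.176 RPKM), SLC45A2 (27.1 and 0.785 RPKM), PMEL (15.5 and 0.513 RPKM), which overlaps DGKA, and EDNRB (17.3 and 1.71 RPKM). KIT (43.6 and 44.2 RPKM) and OCA2 (2.47 and 2.54 RPKM) were near equal, and MLANA, without a ratio, was at 12.0 RPKM in R/r SV and listed at 0 in r/r SV. The reads found for MLANA were 4 and 0 on an exon length of 21 b, the shortest that fits its value. This length is very short, so the true R/r reads are probably a multiple, and no upper limit of the r/r level is read from them. CCK was thus higher in the library in which 6 melanocyte markers were lower, and the part of the melanocytes in the CCK value was not tested.

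The other SV cell types differed less. The summed level of 5 matched marginal cell markers was 1586 RPKM in R/r SV and 1168 RPKM in r/r SV, with ATP1B2 (915 and 522 RPKM) the most abundant, followed by SLC12A2 (312 and 334 RPKM), KCNE1, ESRRB (69.6 and 56.1 RPKM) and BSND (10.5 and 7.62 RPKM). That of 6 matched basal cell and fibrocyte markers was 9305 and 7729 RPKM, with COCH the most abundant, followed by CA3 (1296 and 1712 RPKM), CLDN11, ATP1B1 (288 and 345 RPKM) and POU3F4 (54.2 and 52.6 RPKM). None of the genes compared in either list was 2-fold apart, beside 1.78% higher and 2.20% lower over all genes compared. SLC26A4, the remaining matched marker of the second list, was under the minimum at 0.209 and 0.116 RPKM. It had 8 and 4 reads, with a log2 ratio of -0.85 (-3.03 to 1.05). No matched marker of these lists was listed at 0. Their part in the CCK value was not tested either.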

How the data were processed

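RNA-seq of SV from 1 Mitf R/r and 1 Mitf r/r library was used. The authors deposited RPKM values per gene, which are already scaled to exon length and library depth and were used as deposited. The submitters' processing notes name TopHat2 2.0.7 and Sscrofa10.2; the counting program, its strand setting and the gene annotation are not given in the sources used here. The table has 2 further columns without headings, which hold comparisons of some genes and were not used.

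Symbols came from the deposited table (16376 features), an Ensembl name table (1794) and the deposited descriptions (135), and 9317 features had none. For a symbol carried by several features, that of highest mean RPKM was taken. A few genes of the glia and endocrine marker lists are not reported here and were left out of the counts and sums of these lists, which are therefore incomplete and read in no direction. Members and gene lists were chosen with earlier results of these data known. The genes named are the members, their partner ligands and receptors, the 5 genes of highest RPKM in each list, every listed gene at least 2-fold apart with RPKM of at least 1 in one library, the 5 genes nearest to CCK in log2 RPKM, and the 5 annotated genes on each side of it; others are given beside a list's result or named as chosen after their values were seen.

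No pseudocount was added before taking the log2 ratio (r/r over R/r). Whole reads were then worked out, a step chosen after the values had been seen: the commonest ratio between low values (1.11, 736 features) gave the relative depth, the library totals were those that made exon lengths whole for 64.5% of 3000 features, and reads were found for 20859 of 20862 features above 0 as the shortest whole exon length, up to 20000 b, that gives both values. From these reads came exact Poisson intervals of levels and exact Clopper-Pearson intervals of ratios, both 95%. The search for reads was tested on simulated data, with the true library totals supplied. In the simulated r/r against R/r comparison over 5000 features, reads were exact for 83.7% and correct apart from a common factor for 100%. The step that found the totals was not tested, so the read counts and intervals depend on totals without such a check. Alternatives were pseudocounts of 0.1 and 1 RPKM, no minimum or a minimum of 5 RPKM, thresholds of 1.5-fold and 4-fold, and scaling by the median, the upper quartile or to TPM; intervals beyond 2-fold and a minimum of 20 reads were added after seeing the data. RefSeq annotation of Sscrofa11.1 served only for gene order and overlaps. Calculations were done in Python 3.11.15 with scipy 1.17.1, pandas 2.3.3 and numpy 2.4.6, and plots with matplotlib 3.10.9.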

Additional observations from a re-analysis of the deposited data

How the results depend on the processing

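The log2 ratio of CCK ran from 3.61, with a pseudocount of 1 RPKM, to 4.55 over the alternatives. Members at least 2-fold higher numbered 1 to 4: a threshold of 1.5-fold added PENK, NMUR2 was lost with a pseudocount of 1 RPKM or a threshold of 4-fold, and TAC1 was lost with a minimum of 5 RPKM or of 20 reads. With the interval wholly beyond 2-fold, 1 (CCK) was left, and CCK was called under every alternative run. At 1.5-fold, 1 member (CCKBR) was lower. Over all genes, those higher and lower numbered 134 and 183 with a pseudocount of 1 RPKM. They numbered 731 and 752 with no minimum, and 71 and 107 with a minimum of 5 RPKM. At 1.5-fold they numbered 740 and 1031, and at 4-fold 57 and 73. With the interval beyond 2-fold they numbered 48 and 58, and with at least 20 reads 184 and 246. The last 2 alternatives were chosen after seeing the data. Stricter or looser thresholds set these counts by construction. The median of other ligands ran from -0.35 to -0.24, of receptors from -0.07 to 0.02 and of processing genes from -0.04 to 0.01. The last 2 medians lay near 0 and took either sign. Scaling moved the ratio of CCK little, to 4.49 as TPM, 4.54 with the upper quartile and 4.55 after centring on the median. Few reads limit TAC1, SST and CCKBR, which had 5 or fewer over both libraries as recovered. For TAC1 and CCKBR the exon lengths found, 130 b and 109 b, are very short. Their true reads are probably a multiple of those recovered. No paired analysis was possible because each genotype had a single library.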

Other observations

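Muscle genes were also measured beside the SV. Of 11 muscle markers, 10 were in the table and 5 were compared, with a summed level of 53.7 RPKM in R/r SV and 75.3 RPKM in r/r SV. MYH6, a myosin heavy chain, was the most abundant, at 19.2 and 40.1 RPKM, with a log2 ratio of 1.06 (0.94 to 1.19). MYH1 was at 2.98 and 0.445 RPKM and TNNT1 at 6.66 and 3.16 RPKM, both at least 2-fold lower in r/r SV, while MYH7 was at 18.3 and 26.3 RPKM, CKM at 5.08 and 3.82 RPKM, and MYL1 was listed at 0. Muscle markers thus went in both directions.

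Of 10 hair cell markers, 8 were in the table and 2 were compared. Their summed level was 95.1 RPKM in R/r SV and 93.4 RPKM in r/r SV, nearly all of it MYO6 (92.3 and 91.4 RPKM), a myosin that other cells make too. MYO7A was at 1.46 and 0.902 RPKM, a log2 ratio of -0.70 (-1.10 to -0.30), with TMC1 at 0.472 and 0.431 RPKM and POU4F3 at 0.373 and 0.483 RPKM. MYO15A had 1 and 3 reads, GFI1 2 and 1 reads, SLC17A8 1 and 0 reads, and ATOH1, the factor that specifies hair cells, 1 and 0 reads.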
